A study of Mus musculus with 10 samples.

Results

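The 6 genes described here, Meg3, Snhg11, Miat, Malat1, Neat1 and Rian, are transcribed into long noncoding RNAs that stay mostly in the nucleus, and they were taken by name from the 23589 genes of a table of RNA molecules counted in single mouse brain nuclei. All 6 were present in the table. The nuclei were measured by DroNc-seq, in which each nucleus is caught in a droplet with a barcoded bead and every captured RNA molecule is counted once through its unique molecular identifier (UMI). Hippocampus and prefrontal cortex of C57BL/6 mice were dissected and frozen, and nuclei were freed in a detergent buffer. Hippocampus and cortex gave 5 libraries each, and all of them came from unmanipulated mice of this strain as far as the labels tell, with no age stated. The titles number the libraries of a region 0a, 0b, 1, 2 and 3. Libraries 0a and 0b share a number and were summed, which left 4 units, numbered 0 to 3, in hippocampus and in cortex. The labels name 4 brains and 2 regions and do not tie a number to a mouse, so p-values measure how far these units spread, and that spread may be technical.

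Malat1 and Neat1 lie side by side in the genome and mark 2 kinds of nuclear body. Malat1 RNA gathers in nuclear speckles, where splicing factors are stored, and Neat1 RNA is the scaffold around which paraspeckles form. Meg3 and Rian belong to the imprinted Dlk1-Dio3 domain, in which the maternal copy gives a series of noncoding transcripts, Meg3 first, then Rian, then Mirg, and Rian carries many small nucleolar RNAs and microRNAs in its introns. Miat, also called Gomafu, forms its own foci in neuronal nuclei and carries copies of a short repeat with which the splicing factor SF1 is known to associate. Snhg11 belongs to the genes named as hosts of small nucleolar RNAs and is known as a neuronal transcript.

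In the GENCODE vM21 annotation of GRCm38 (mm10), Meg3 (ENSMUSG00000021268) lies on the plus strand at chr12:109541001-109571726, and Rian (ENSMUSG00000097451) follows it on the same strand after a gap of 32.2 kb, at chr12:109603940-109661716. Mirg begins 68.0 kb beyond Rian. Malat1 (ENSMUSG00000092341) at chr19:5795690-5802672 and Neat1 (ENSMUSG00000092274) at chr19:5824708-5845478 are both on the minus strand, 22.0 kb apart. Miat (ENSMUSG00000097767) is on the minus strand at chr5:112213228-112229395. Snhg11 (ENSMUSG00000044349) is on the plus strand at chr2:158375638-158386145, and this annotation lists it as protein coding, whereas it lists Meg3, Miat, Malat1 and Neat1 as long intergenic noncoding RNAs and Rian as a processed transcript. Because the strand setting of the counting was not given in the sources used here, genes that overlap a member may share reads with it. Gm26906, antisense to Meg3, held 459 UMIs, 0.0636% of those of Meg3, and Gm26953, antisense to Miat, held 33, or 0.177% of those of Miat. Of the 10 table genes inside Rian the largest, Gm26945, held 269 UMIs, 2.35% of those of Rian.

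The start regions of the 3 members whose levels moved together across classes of nuclei are printed here, from 250 bases before to 50 bases after the start, as RefSeq gives them on GRCm38.p6. Capitals mark the letters TGACGTCA (the cyclic AMP response element), TATAAA and CCAAT wherever they occurred on either strand.
Meg3, plus strand, chr12:109540746-109541045: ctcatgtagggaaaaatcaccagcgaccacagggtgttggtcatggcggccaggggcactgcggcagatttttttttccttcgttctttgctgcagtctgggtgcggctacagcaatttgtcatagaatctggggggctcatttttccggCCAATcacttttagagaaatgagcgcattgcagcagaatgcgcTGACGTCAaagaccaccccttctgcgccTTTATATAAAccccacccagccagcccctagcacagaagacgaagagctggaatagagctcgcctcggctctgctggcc
Rian, plus strand, chr12:109603695-109603994: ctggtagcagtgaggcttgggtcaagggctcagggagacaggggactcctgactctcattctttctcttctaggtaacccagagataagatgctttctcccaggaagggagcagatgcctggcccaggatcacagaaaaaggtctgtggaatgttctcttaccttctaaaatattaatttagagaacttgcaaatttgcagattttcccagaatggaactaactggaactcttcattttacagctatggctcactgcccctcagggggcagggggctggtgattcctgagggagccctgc
Snhg11, plus strand, chr2:158375463-158375762: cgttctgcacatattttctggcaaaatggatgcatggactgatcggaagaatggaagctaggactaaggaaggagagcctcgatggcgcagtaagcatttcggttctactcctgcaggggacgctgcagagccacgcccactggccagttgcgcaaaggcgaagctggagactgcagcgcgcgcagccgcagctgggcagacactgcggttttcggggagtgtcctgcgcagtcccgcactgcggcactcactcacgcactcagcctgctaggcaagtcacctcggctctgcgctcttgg
RefSeq lists a second Meg3 start downstream, with the window chr12:109545148-109545447, which is not printed and held none of the 3 motifs and 1 CpG. The printed Meg3 window held 1 TGACGTCA starting 57 bases before the start, 2 overlapping matches to TATAAA on opposite strands and 1 CCAAT. Those motifs occurred in 1.79%, 13.6% and 37.4% of 32851 RefSeq windows of the same length. The Rian and Snhg11 windows held none of the 3, which says only that these letters are not there. The windows also differed in CpG content, with 13 CpG in the printed one of Meg3, 0 in that of Rian and 21 in that of Snhg11, against a median of 7 over all windows.

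The repeat of Miat is shown because it sets this RNA apart from the other members in sequence. TACTAAC occurred 6 times in Miat-205, the longest annotated Miat transcript with 9163 bases, or 0.655 times per kb. It occurred 1 time in the longest Neat1 transcript and 0 times in those of Meg3, Snhg11, Malat1 and Rian. The stretch from base 4873 to base 5072 of Miat-205 held 3 copies, in capitals.
Miat-205, bases 4873 to 5072, transcript strand: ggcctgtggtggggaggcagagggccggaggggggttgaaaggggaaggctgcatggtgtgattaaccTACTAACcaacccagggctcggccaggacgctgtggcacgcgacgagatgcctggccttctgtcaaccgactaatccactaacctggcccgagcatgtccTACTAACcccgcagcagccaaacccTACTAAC

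In all, 11624 nuclei were counted, 5658 from hippocampus and 5966 from cortex, with 1443244 to 2600788 UMIs per library. Per library, the median nucleus of hippocampus held 643.5 to 1172 UMIs and that of cortex 1106.5 to 2732, and in cortex 0a and 0b were the deepest. Nuclei were clustered without the 6 members and each cluster was named from marker genes. Classes are called like the cell type whose markers they carry, and 1648 hippocampal and 614 cortical nuclei stayed unnamed. Among these were 405 nuclei led by oligodendrocyte genes and 388 led by astrocyte genes, whose excitatory marker scores (0.634 and 0.592) came too near those of the glial classes (0.648 and 0.666). All or all but 1 of the markers were highest in their own class for each of 9 classes, while only 5 of 9 excitatory markers were highest in the excitatory-like class. Pairs of libraries shared at most 3 barcodes. In each region the libraries of number 0 lay away from the others, and this touches several values below.

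The name abundant held for 5 members. Malat1, with 1682510 UMIs, ranked 1 of 23589 genes by UMIs in this table, Meg3 ranked 2 with 721907 and Snhg11 ranked 3 with 365322. Miat ranked 41 with 18676 UMIs and Rian 113 with 11438. Neat1 ranked 689 with 4360 UMIs, at 277 in hippocampus and at 1773 in cortex. These ranks are not corrected for transcript length. Together the 6 members gave 14.4% ± 1.12 of all UMIs in hippocampus and 13.9% ± 0.602 of those in cortex (SD over 4 units per region).

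Summed over all nuclei of a unit, the members moved in both directions between the regions. Neat1 and Malat1 were higher in hippocampus, while Snhg11, Rian and Meg3 were lower there. Levels of the rarer members are given as CPM, their UMIs scaled to a total of 1000000 UMIs. Neat1 had 321, 344, 422, 344 and 325 CPM in hippocampal libraries 0a, 0b, 1, 2 and 3, against 126, 137, 106, 97.3 and 114 in the cortical libraries of the same names. Every hippocampal library lay above every cortical one. The log2 fold change, hippocampus minus cortex, was 1.65 ± 0.12 (SE, n = 4 units each). The test was the quasi-likelihood one of edgeR, and its p, adjusted by Benjamini-Hochberg over all 12855 genes tested, was 3.2e-06.

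Malat1 held 8.20%, 8.66%, 10.03%, 9.60% and 9.81% of UMIs in the hippocampal libraries and 7.74%, 7.41%, 7.55%, 7.85% and 7.66% in the cortical ones. The regions did not overlap, and hippocampal libraries 0a and 0b lay nearest to cortex. The log2 fold change was 0.29 ± 0.06 with an adjusted p of 0.00646 in edgeR. Snhg11 held 1.41%, 1.39%, 1.51%, 1.64% and 1.56% in the hippocampal libraries and 1.84%, 1.89%, 2.21%, 2.13% and 2.12% in the cortical ones. The regions did not overlap here either, and the log2 fold change was -0.46 ± 0.08 with an adjusted p of 0.00113 in edgeR.

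Meg3 held 2.76%, 2.67%, 3.38%, 3.44% and 3.40% in the hippocampal libraries and 3.37%, 3.42%, 4.31%, 4.19% and 4.24% in the cortical ones. Here the regions overlapped, because both number 0 libraries of cortex lay among hippocampal libraries 1 to 3. Rian, its downstream neighbour, had 556, 574, 461, 436 and 421 CPM in the hippocampal libraries and 733, 639, 578, 591 and 547 in the cortical ones. The number 0 libraries were the highest of their region for Rian and the lowest for Meg3. For Meg3 the log2 fold change was -0.33 ± 0.10 (adjusted p 0.0325) and for Rian -0.37 ± 0.10 (0.0271), both in edgeR. The call of Meg3 was lost without any 1 of units 1 to 3 of hippocampus or of cortex, with adjusted p of 0.0516 to 0.0979 in edgeR. That of Rian was lost without unit 1, 2 or 3 of hippocampus or unit 1 or 2 of cortex, with 0.0548 to 0.0960.

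Miat ranged from 807 to 884 CPM in the hippocampal libraries and from 859 to 1160 in the cortical ones, and it did not pass the test (log2 fold change -0.20 ± 0.09, adjusted p 0.167 in edgeR). In all, 2 members rose and 3 fell in hippocampus, where 17.7% of all genes tested were called. In these sums fewer nuclei of a type and less RNA per nucleus cannot be told apart. The share of excitatory-like nuclei was 45.2% ± 7.6 in hippocampus and 67.7% ± 3.90 in cortex. The share of astrocyte-like nuclei was 11.2% ± 3.12 in hippocampus and 2.60% ± 1.85 in cortex, and that of oligodendrocyte-like nuclei 5.52% ± 0.938 in hippocampus and 0.344% ± 0.647 in cortex (SD over 4 units per region).

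**Figure D1:**
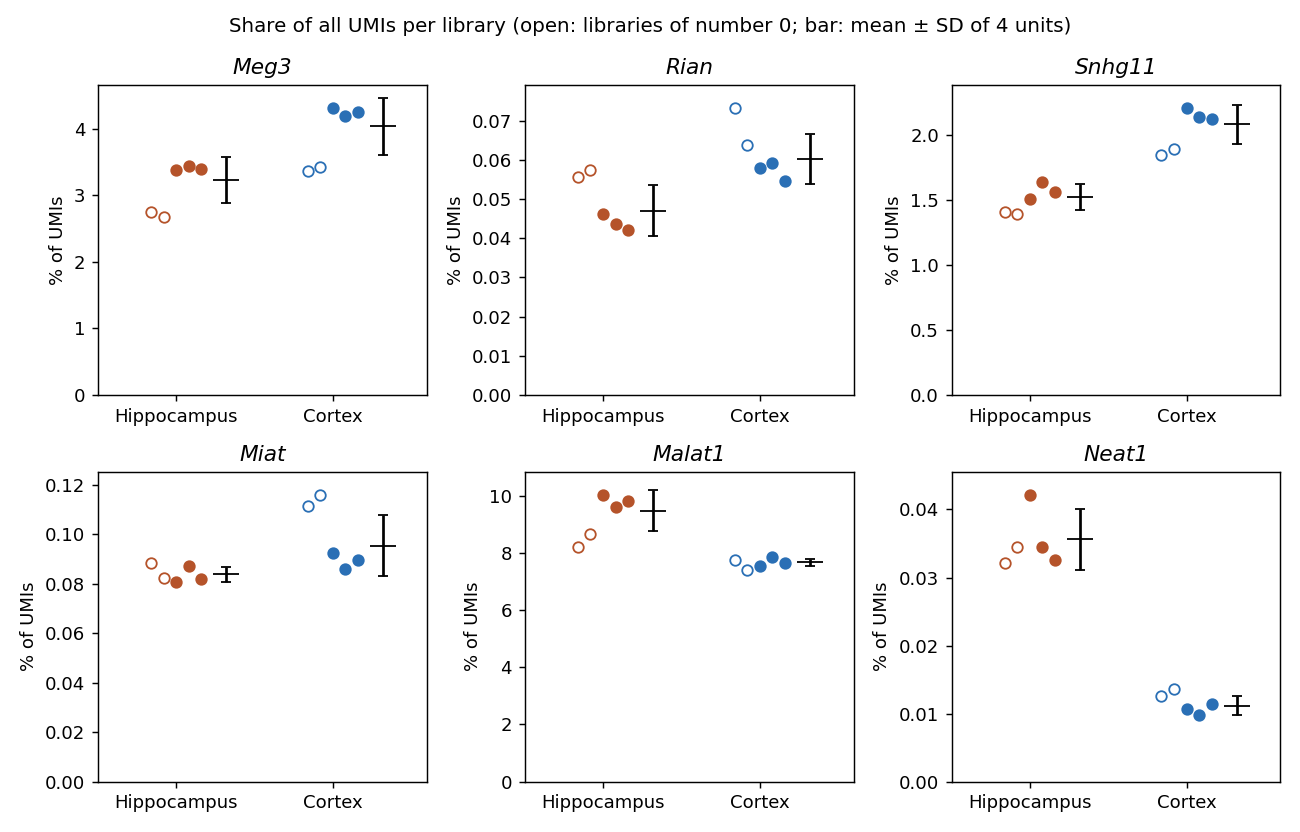
Share of all UMIs held by each member in each library, in % (vertical axis, from 0), with hippocampal libraries left and cortical libraries right. Open points are the libraries of number 0, and bars give the mean ± SD of the 4 units. Neat1, Malat1 and Snhg11 separate the regions completely, while Meg3 overlaps through the number 0 libraries of cortex.

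Within classes the 6 RNAs fell into 3 patterns. Neat1 was called higher in every other class tested than in excitatory-like nuclei, with the largest fold in oligodendrocyte-like ones. Meg3, Snhg11, Rian and Miat were lower in astrocyte-like, oligodendrocyte-like and vascular-like nuclei than in excitatory-like ones. In oligodendrocyte precursor-like, microglia-like and fibroblast-like nuclei their folds were smaller or did not pass. The clusters of these weaker classes had excitatory marker scores of 0.581, 0.595 and 0.608, near those of the unnamed glial clusters, against 0.360 in the astrocyte-like cluster. They were named because their own scores were higher still, and the part of this in the weaker folds was not tested. Miat was also lower in inhibitory-like nuclei, at 58.1% of its excitatory-like level in cortex, below the 83.8% of microglia-like ones there. Malat1 was high in every class but the vascular one. That class pooled 354 endothelial-like nuclei, at 3.60% Malat1 and 0.672% Meg3, with 20 mural-like nuclei, at 7.62% Malat1 and 3.34% Meg3. Its low values therefore describe the endothelial-like nuclei, and the mural-like ones were too few to be tested alone. Each class was tested against excitatory-like nuclei in 1 model over 52 sums with the unit as a block, and the share of all 6114 genes called ran from 6.23% for the fibroblast-like class to 77.7% for the vascular-like class. The number of members called was 5 of 6 in astrocyte-like nuclei (54.1% of all genes called), 5 in oligodendrocyte-like (35.1%), 6 in vascular-like (77.7%), 5 in oligodendrocyte precursor-like (11.4%), 3 in microglia-like (9.09%), 3 in fibroblast-like (6.23%) and 4 in inhibitory-like nuclei (20% of all genes). Neat1 was the member called higher in each of the 7 classes.

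Neat1 had 2520, 4681, 5143 and 5471 CPM in the oligodendrocyte-like nuclei of hippocampus units 0 to 3, against 26.2, 28.02, 34.8 and 23.7 in the excitatory-like nuclei of the same units. Unit 0 was the lowest of the 4 for oligodendrocyte-like nuclei and still far above every excitatory-like value. The log2 fold change, oligodendrocyte-like minus excitatory-like, was 7.06 ± 0.24 with an adjusted p of 2.79e-43 in edgeR, and it ran from 5.42 to 7.33 over the alternatives. Cortex held 19 oligodendrocyte-like nuclei, 18 of them in unit 0 at 2250 CPM, so that class was not compared between regions.

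In the astrocyte-like class Neat1 had 590, 812, 541 and 564.5 CPM in hippocampus units 0 to 3 and 548, 177, 426 and 572 in cortex units 0 to 3. The regions overlapped. Fibroblast-like nuclei had 506, 261 and 447 CPM in cortex units 1 to 3, and 1498 in hippocampus unit 0, where that class had 23 nuclei. Cortex unit 0 had 928 CPM from 13 such nuclei, under the minimum of 20, and was not tested. Vascular-like nuclei, with markers of endothelial and mural cells, had 380, 268, 439 and 328 in hippocampus units 0 to 3 and 294, 248.9, 324 and 301 in cortex units 0 to 3. Astrocyte-like values lay above vascular-like ones in hippocampus, while in cortex the 3 classes overlapped. In microglia-like nuclei, the immune cells of the brain, Neat1 had 188, 320, 149 and 198 in cortex units 0 to 3, and in hippocampus 378 and 609 in the 2 units with at least 20 nuclei. Against excitatory-like nuclei the log2 fold change was 4.63 ± 0.32 in the fibroblast-like, 4.43 ± 0.21 in the astrocyte-like, 3.70 ± 0.22 in the vascular-like, 3.40 ± 0.26 in the microglia-like and 2.80 ± 0.37 in the oligodendrocyte precursor-like class, with adjusted p from 1.09e-32 to 2.55e-09 in edgeR. The precursor-like units were uneven in cortex. Of the 3 there, the lowest held no Neat1 UMI and the highest stood at 964% of its excitatory-like level. The 3 precursor-like units of hippocampus stood at 846% to 2740%.

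Inhibitory-like nuclei also had more Neat1 than excitatory-like ones, with 33.8, 71.8, 90.6 and 97.1 CPM in hippocampus units 0 to 3 and 40.3, 58.0, 88.0 and 49.2 in cortex units 0 to 3. In every unit the inhibitory-like value exceeded the excitatory-like value, and the log2 fold change was 1.30 ± 0.28 with an adjusted p of 0.000182 in edgeR. The call was lost in 2 alternatives. Choroid plexus-like nuclei, 28 in all and all from hippocampus unit 0, had 2921 CPM of Neat1, with no replicate, above the 2520 CPM of the oligodendrocyte-like nuclei of that unit. Ependymal-like nuclei, 52 in all and all from hippocampus, had 892 CPM as a pool and were too few in each unit to be tested.

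The share of nuclei with at least 1 Neat1 UMI was compared at a fixed depth. With each nucleus thinned to 500 UMIs, which leaves out shallower nuclei, 69.7% of 234 oligodendrocyte-like nuclei of hippocampus had a Neat1 UMI (exact binomial 95% interval 63.3% to 75.5%), against 1.13% of 2218 excitatory-like nuclei (0.731% to 1.66%). Without thinning, the shares were 77.1% of 306 and 4.18% of 2415 nuclei, at median depths of 630 and 1252 UMIs. In astrocyte-like nuclei the thinned share was 26.3% in hippocampus and 17.9% in cortex. Slc17a7, the vesicular glutamate transporter gene of excitatory neurons, gave a thinned share of 3.42% in the same oligodendrocyte-like nuclei and 16.95% in the excitatory-like ones, a gauge of free neuronal RNA in the droplets. The intervals cover counting error only.

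**Figure D2:**
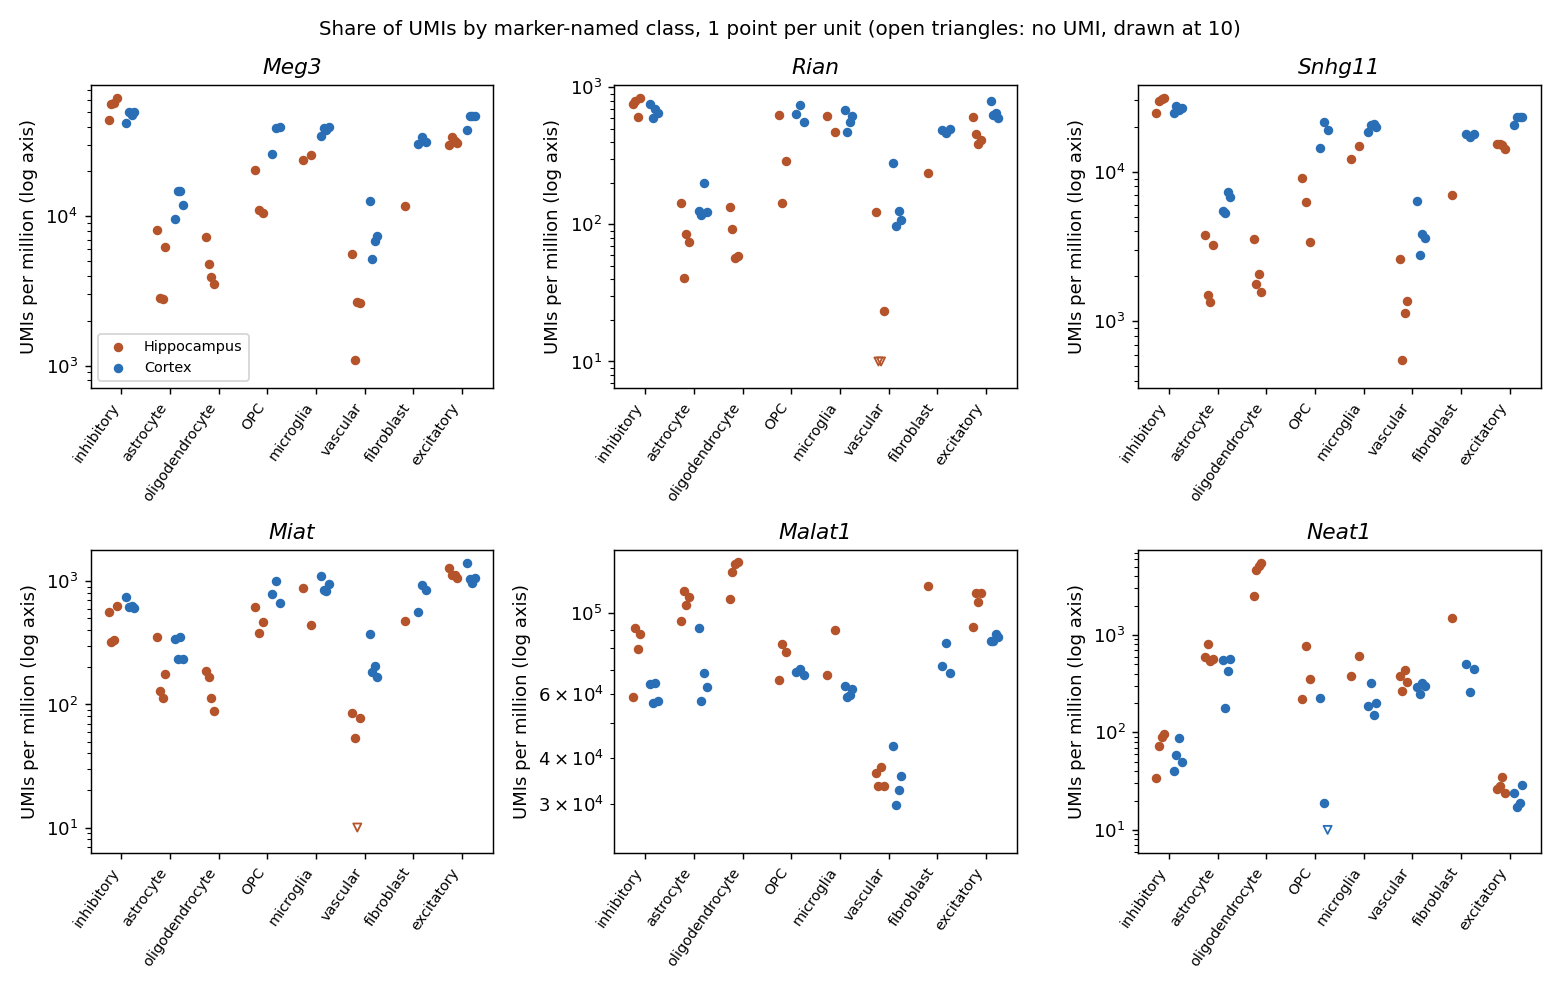
Level of each member in CPM (vertical log axes) in excitatory-like nuclei and in each class tested against them. There is 1 point per unit of at least 20 nuclei, coloured by region with hippocampus left of cortex. Open triangles mark units with no UMI, drawn at 10. Neat1 lies at 2520 to 5471 in the oligodendrocyte-like nuclei of hippocampus, and it stays between 17.02 and 34.8 in excitatory-like nuclei.

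Malat1 held 10.9%, 13.0%, 13.7% and 13.8% of UMIs in the oligodendrocyte-like nuclei of hippocampus units 0 to 3, against 9.15%, 11.4%, 10.7% and 11.4% in their excitatory-like nuclei. It was higher in every unit, but the difference did not pass (log2 fold change 0.26 ± 0.19, adjusted p 0.317 in edgeR) and its sign turned with 3 settings. In vascular-like nuclei Malat1 held 3.65%, 3.34%, 3.78% and 3.35% in hippocampus units 0 to 3 and 4.31%, 2.97%, 3.26% and 3.58% in cortex units 0 to 3. Every one of these lay below every other class of that unit for which at least 20 nuclei were summed. Vascular-like minus excitatory-like, the log2 fold change was -1.42 ± 0.16 with an adjusted p of 2.23e-13 in edgeR. Inhibitory-like (-0.53 ± 0.15), microglia-like (-0.61 ± 0.17) and oligodendrocyte precursor-like nuclei (-0.63 ± 0.17) were also lower, with adjusted p of 0.00648, 0.011 and 0.00636 in edgeR, and the microglia-like call was lost without unit 0 of cortex (0.0607). Astrocyte-like nuclei had -0.10 ± 0.15 and fibroblast-like ones -0.17 ± 0.19, which did not pass.

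Meg3 held 4.401%, 5.68%, 5.78% and 6.20% of UMIs in the inhibitory-like nuclei of hippocampus units 0 to 3, against 3.03%, 3.41%, 3.21% and 3.12% in their excitatory-like nuclei. In cortex it held 4.25%, 5.04%, 4.81% and 5.03% in inhibitory-like nuclei and 3.80%, 4.70%, 4.67% and 4.735% in excitatory-like ones. The inhibitory-like value was the higher in all 8 units, yet over all of them the difference did not pass (log2 fold change 0.47 ± 0.22, adjusted p 0.13 in edgeR). Snhg11 was also higher in all 8 units and did pass, at 0.61 ± 0.21 with an adjusted p of 0.0315 in edgeR, a call that was lost without unit 0, 2 or 3 of hippocampus, with adjusted p of 0.058 to 0.0821. Rian had 0.25 ± 0.16, which did not pass. Miat went the other way: it had 562, 323, 332 and 631 CPM in the inhibitory-like nuclei of hippocampus and 744, 615, 630 and 602 in those of cortex, below 1274, 1126, 1125 and 1068 in excitatory-like nuclei of hippocampus and 1413, 1054, 973.5 and 1063 in those of cortex. Its log2 fold change was -1.15 ± 0.16 with an adjusted p of 1.56e-08 in edgeR.

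In the astrocyte-like, oligodendrocyte-like and vascular-like classes these 4 RNAs were low together. Oligodendrocyte-like minus excitatory-like, the log2 fold change was -2.54 ± 0.32 for Meg3, -2.59 ± 0.31 for Snhg11, -2.32 ± 0.36 for Rian and -2.70 ± 0.31 for Miat. In astrocyte-like nuclei the 4 values ran from -2.34 to -2.24, and in vascular-like nuclei from -2.94 to -2.28, with adjusted p of at most 7.16e-08 in these 3 classes in edgeR. The astrocyte-like calls held in all 19 alternatives, but the values there were as small as -1.03 for Meg3, -0.99 for Snhg11, -0.90 for Rian and -1.10 for Miat. The oligodendrocyte-like values depended on how finely nuclei were clustered. At resolution 1 they were -0.38 for Meg3, -0.41 for Snhg11 and -0.36 for Rian, with adjusted p of 0.259, 0.186 and 0.205 in edgeR, and the 3 calls were lost. The unnamed cluster led by oligodendrocyte genes held 3.44% Meg3 and 1.65% Snhg11 and that led by astrocyte genes 3.30% Meg3 and 1.74% Snhg11, and neither is part of the classes tested. In oligodendrocyte precursor-like nuclei Meg3, Miat and Snhg11 were lower (-1.02, -1.05 and -0.98) and Rian did not pass, and in microglia-like nuclei of the 4 only Miat was lower (-0.71 ± 0.18, adjusted p 0.00456 in edgeR). In fibroblast-like nuclei Meg3 (-1.02 ± 0.29) and Miat (-0.93 ± 0.24) were lower. Without hippocampus unit 0, the 1 unit of that region with enough such nuclei, their adjusted p were 0.193 and 0.0812, and without cortex unit 1 that of Miat was 0.0573.

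**Figure D3:**
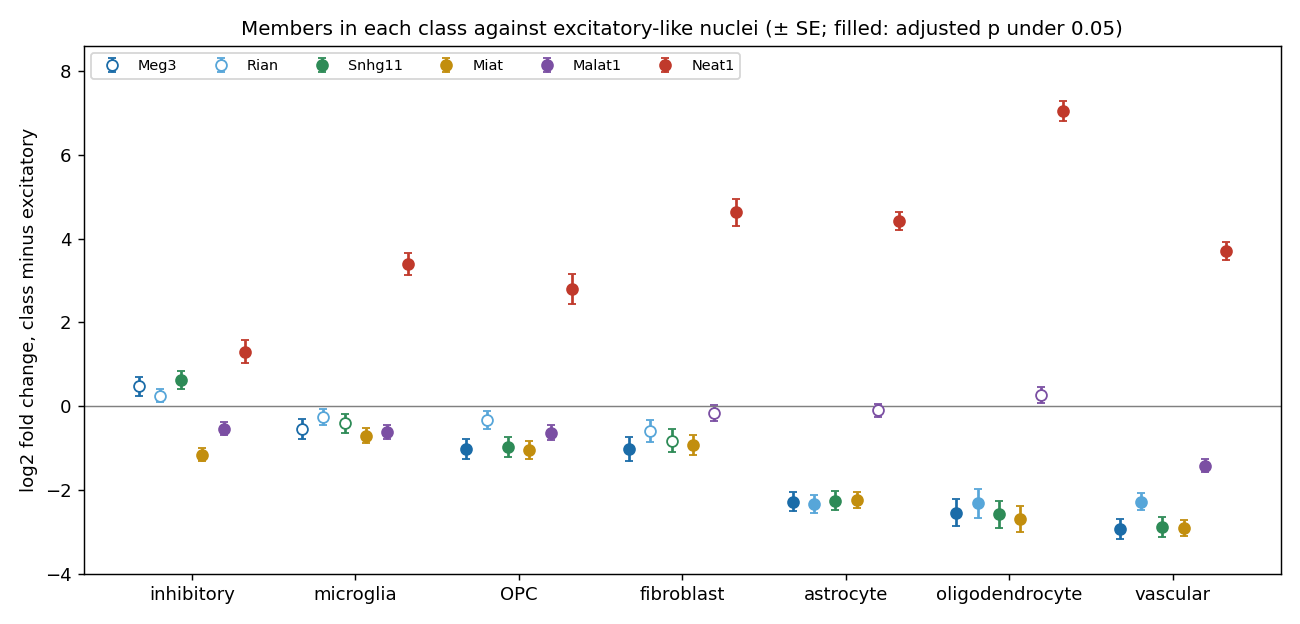
Log2 fold change ± SE of each member in each class minus excitatory-like nuclei (vertical axis), from 1 edgeR model with the unit as a block. Filled points passed an adjusted p of 0.05 and open points did not. Neat1 lies above 0 in all 7 classes, at 7.06 in the oligodendrocyte-like class, and Meg3, Snhg11, Rian and Miat lie below -2 in the astrocyte-like, oligodendrocyte-like and vascular-like classes.

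The level of excitatory marker genes in each class moved with those low values. In oligodendrocyte-like nuclei of hippocampus the summed excitatory markers stood at 15.3% of their excitatory-like level, and Meg3 stood at 15.4%, Snhg11 at 14.9%, Rian at 17.8% and Miat at 12%. In astrocyte-like nuclei the markers stood at 28.8% in hippocampus and 45.4% in cortex, and Meg3 at 15.9% in hippocampus and 28.4% in cortex. In vascular-like nuclei the markers stood at 11.8% in hippocampus and 31.5% in cortex, and Meg3 at 9.61% in hippocampus and 18.6% in cortex. In microglia-like nuclei the markers stood at 54.1% in hippocampus and 77.1% in cortex, and Meg3 at 77.2% in hippocampus and 84.8% in cortex. Malat1 in oligodendrocyte-like nuclei stood at 121% of its excitatory-like level. An alternative subtracted the excitatory profile, scaled by these markers, from every other class. Over all alternatives the log2 fold change of Meg3 against excitatory-like nuclei ran from -2.50 to -0.43 in microglia-like and from -17.2 to -1.03 in astrocyte-like nuclei. The subtraction takes every excitatory marker UMI in a class as free RNA. Apart from it, the part of free neuronal RNA in the levels of Meg3, Snhg11, Rian and Miat outside neurons was not tested.

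**Figure D4:**
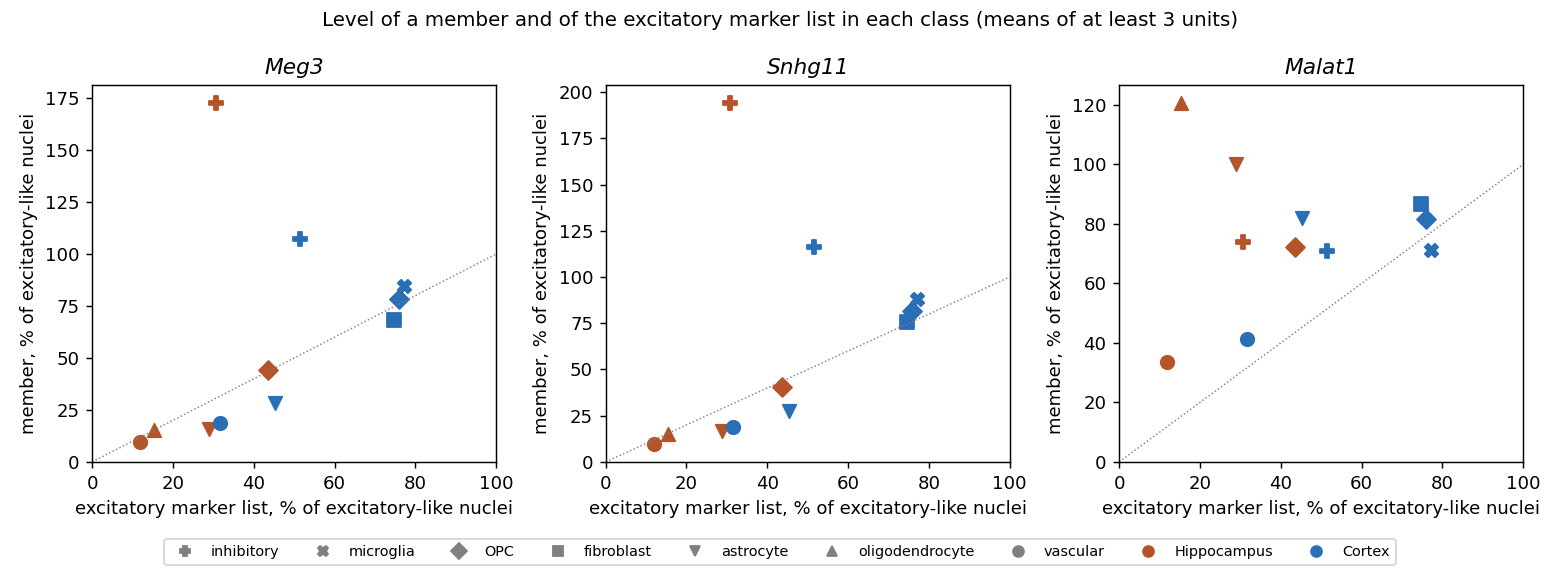
Level of Meg3, Snhg11 and Malat1 in a class (vertical axes) against the level of the excitatory marker list in that class (horizontal axes). Both are in % of excitatory-like nuclei, for classes with at least 3 units, and hippocampus and cortex differ by colour. The dotted line marks equal percentages. Meg3 lies near it at 15.4% against 15.3% in the oligodendrocyte-like nuclei of hippocampus and below it at 15.9% against 28.8% in the astrocyte-like ones.

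Region was then compared within classes. In excitatory-like nuclei Malat1 rose in hippocampus, and Snhg11, Meg3 and Rian fell, so that 4 of 6 members were called where 16.4% of all 10942 genes were. Snhg11 averaged 1.5% ± 0.0582 in hippocampus and 2.27% ± 0.131 in cortex (SD over 4 units per region), and the log2 fold change was -0.56 ± 0.06 with an adjusted p of 2.35e-05 in edgeR. Meg3 averaged 3.19% ± 0.166 in hippocampus and 4.48% ± 0.452 in cortex (-0.45 ± 0.07, adjusted p 0.000779 in edgeR). Rian averaged 466 ± 98.2 CPM in hippocampus and 666 ± 85.6 in cortex (-0.48 ± 0.14, 0.026), and its call was lost without unit 1, 2 or 3 of hippocampus or unit 2 of cortex, with adjusted p of 0.0519 to 0.0974. Malat1 averaged 10.7% ± 1.05 in hippocampus and 8.53% ± 0.177 in cortex (0.36 ± 0.07, 0.0029). Miat (0.06 ± 0.11) and Neat1 (0.35 ± 0.22) did not pass.

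The excitatory-like nuclei of the regions were not the same kinds of nuclei, and 3 of the 4 calls did not hold without the subtype that most separated them. Dentate granule-like nuclei were 48.4% ± 9.90 of the excitatory-like nuclei of hippocampus and 0.0701% of those of cortex. In the fit without them, an alternative chosen after seeing the data, Meg3 averaged 4.43% ± 0.460 in hippocampus and 4.48% ± 0.452 in cortex, and the log2 fold change was 0.06 with an adjusted p of 0.83 in edgeR. Snhg11 averaged 2.20% ± 0.137 in hippocampus and 2.27% ± 0.131 in cortex (0.03, 0.919), and Rian 632 ± 96.2 CPM in hippocampus and 666 ± 85.4 in cortex (-0.01, 0.993). Malat1 stayed higher in hippocampus, at 0.41 with an adjusted p of 0.00611 in edgeR. In layer 6-like nuclei alone, which both regions held, 0 of the 5 members tested passed in edgeR, and 0 had an unadjusted p under 0.05, with Meg3 at 0.10, Snhg11 at 0.04, Rian at 0.22 and Malat1 at 0.06 (adjusted p 0.884). That fit called 8 genes in all, against 1799 with all excitatory-like nuclei, so its 0 says little about the members. Hippocampus held 20 to 41 such nuclei per unit. In layer 6-like nuclei Malat1 held 9.52%, 8.49%, 7.72% and 8.87% in hippocampus units 0 to 3 and 8.17%, 8.24%, 8.88% and 8.45% in cortex units 0 to 3, and the regions overlapped.

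Within the hippocampus itself dentate granule-like nuclei, the small densely packed neurons of the dentate gyrus, were low in Meg3, Snhg11 and Rian. Meg3 held 0.988%, 1.36%, 1.20% and 1.22% of UMIs in the dentate granule-like nuclei of units 0 to 3, against 3.86%, 4.68%, 4.38% and 4.41% in the CA1 pyramidal-like nuclei of the same units. Snhg11 held 0.275%, 0.389%, 0.386% and 0.389% in dentate granule-like nuclei and 2.31%, 2.28%, 2.25% and 2.16% in CA1-like ones. Rian had 184, 176, 166 and 196 CPM in dentate granule-like nuclei and 627, 614, 531 and 562 in CA1-like ones. The subtypes were far apart in every unit for these 3 RNAs. The cluster named CA1-like also carried CA3 genes, with a score of 0.65 for CA3 beside 0.825 for CA1, so CA3 pyramidal-like nuclei may be part of it. The log2 fold changes, dentate granule-like minus CA1-like, were -2.77 ± 0.07 for Snhg11, -1.98 ± 0.05 for Meg3 and -1.80 ± 0.12 for Rian, with adjusted p of 3.69e-38, 1.8e-36 and 3.97e-19 in edgeR with the unit as a block. At resolution 4, where 191 CA3-like nuclei formed a cluster apart from 346 CA1-like ones, the values against CA1-like nuclei alone were -2.756 for Snhg11, -1.998 for Meg3 and -1.78 for Rian.

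Malat1 differed less between these subtypes, with 8.81%, 11.1%, 10.5% and 11.4% in dentate granule-like nuclei and 10.8%, 11.8%, 11.5% and 11.96% in CA1-like ones (-0.26 ± 0.05, adjusted p 1.6e-05 in edgeR). It was lower in all 4 units, by the most in unit 0, and the call was lost in 1 alternative. Miat had 1274, 1095, 1134 and 1049 CPM in dentate granule-like nuclei and 1146, 1159, 1071 and 1074 in CA1-like ones. Those values overlapped, and the log2 fold change of -0.08 ± 0.08 did not pass. Thus 4 of the 5 members tested were called, all lower, where 27.6% of all 6534 genes were called; Neat1 fell below the filter on low counts. Dentate granule-like nuclei held a median of 1097 UMIs and CA1-like nuclei 2063. With every nucleus thinned to 500 UMIs and in each fit without 1 unit, Meg3, Snhg11 and Rian stayed lower, and over all alternatives the log2 fold change ran from -2.01 to -1.94 for Meg3, from -2.84 to -2.63 for Snhg11 and from -1.96 to -1.76 for Rian.

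Over all excitatory-like nuclei of hippocampus, levels of these RNAs also moved with depth. The nuclei of each unit were split by depth into 3 groups of equal size. The deepest group held 3.91% ± 0.315 Meg3 and the shallowest 2.09% ± 0.124 (SD, n = 4 units), while Snhg11 held 1.86% ± 0.0593 in the deepest group and 0.964% ± 0.15 in the shallowest. The deepest group was the higher in all 4 units for both. In cortex these groups lay closer together, with Meg3 at 4.62% ± 0.498 in the deepest and 4.26% ± 0.472 in the shallowest. The part of subtype and of depth in this trend was not tested, and dentate granule-like nuclei are the shallower subtype.

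In cortex the members also differed between layers. Layer 5-like nuclei, which include neurons that project out of the cortex, had more Meg3 than layer 2-4-like nuclei, at 4.72%, 5.60%, 5.66% and 5.94% in layer 5-like nuclei of units 0 to 3 and 3.72%, 4.51%, 4.50% and 4.64% in layer 2-4-like ones. The log2 fold change was 0.34 ± 0.03 with an adjusted p of 1.21e-20 in edgeR. Miat had 1915, 1200, 1253 and 1506 CPM in layer 5-like nuclei and 1305, 899, 875 and 998 in layer 2-4-like ones (0.53 ± 0.07, 7.52e-10). Rian (0.47 ± 0.09) and Snhg11 (0.15 ± 0.03) were higher too, so 4 of 5 members tested rose where 15.9% of 5526 genes were called. The median depth was 1938 UMIs in layer 5-like and 1280.5 in layer 2-4-like nuclei. Between layer 6-like and layer 2-4-like nuclei only Malat1 passed, at -0.09 ± 0.03 with an adjusted p of 0.0161 in edgeR, where 13.4% of genes were called, and that call was lost without unit 1 or unit 3.

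**Figure D5:**
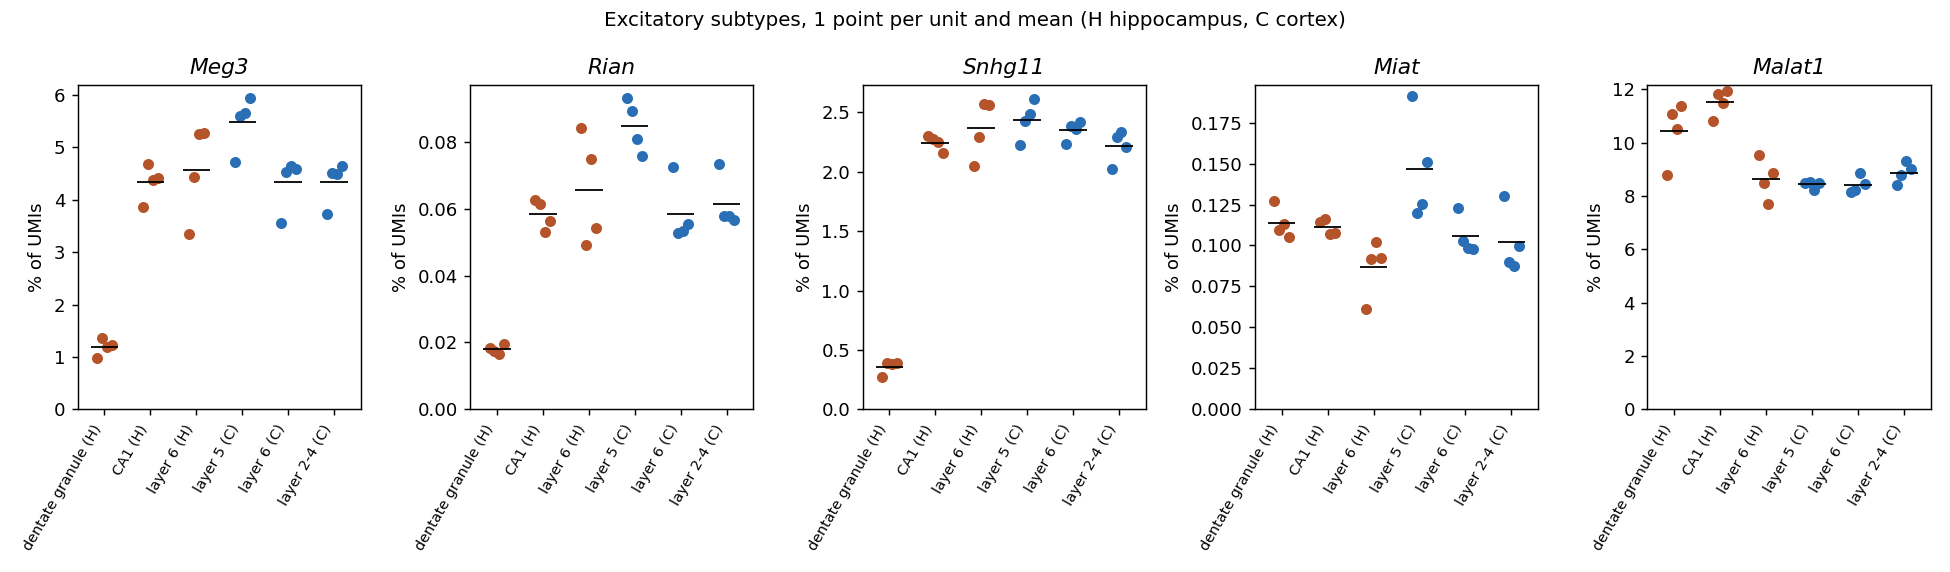
Share of UMIs (vertical axes, %, from 0) of Meg3, Rian, Snhg11, Miat and Malat1 in subtypes of excitatory-like nuclei, with 1 point per unit and the mean as a line. H is hippocampus and C cortex. Meg3 in dentate granule-like nuclei, at 0.988% to 1.36%, lies below CA1-like nuclei, at 3.86% to 4.68%, and below the cortical layers, at 3.55% to 5.94%.

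In inhibitory-like nuclei Malat1 was the 1 member called between regions. It averaged 7.93% ± 1.45 in hippocampus and 6.04% ± 0.405 in cortex (0.45 ± 0.11, adjusted p 0.041 in edgeR), where 0.429% of 5127 genes were called, and 14 of 21 alternatives lost the call, among them every fit without 1 of units 1 to 3 of hippocampus or of cortex (adjusted p 0.112 to 0.285). Meg3 averaged 5.52% in hippocampus and 4.78% in cortex, and Snhg11 2.91% in hippocampus and 2.63% in cortex, and neither passed. The region effect was compared between neuron classes by an interaction term. It was more positive in inhibitory-like than in excitatory-like nuclei by 0.74 ± 0.22 for Snhg11 (adjusted p 0.0394 in edgeR) and by 0.63 ± 0.18 for Rian (0.0285), while Meg3 had 0.69 ± 0.24 and did not pass (0.105). These were 2 of 6 members where 3.32% of 7931 genes were called. Both calls were lost in most of the alternatives, in 10 and 11 of 17, among them every fit without 1 of units 1 to 3 of hippocampus or of cortex (adjusted p 0.0648 to 0.363) and, for Rian, that without unit 0 of cortex (0.0872), and the excitatory-like side of the contrast holds the dentate granule-like nuclei described above.

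Astrocyte-like, vascular-like and oligodendrocyte precursor-like nuclei had less Meg3 and Snhg11 in hippocampus. In astrocyte-like nuclei Meg3 held 0.810%, 0.285%, 0.279% and 0.623% in hippocampus units 0 to 3 and 0.959%, 1.47%, 1.48% and 1.20% in cortex units 0 to 3. The regions did not overlap, and the log2 fold change was -1.28 ± 0.26 with an adjusted p of 0.00211 in edgeR. Snhg11 gave -1.26 ± 0.25 (0.00163), so 2 of 6 members were called where 4.86% of 2242 genes were. In vascular-like nuclei Meg3 (-1.45 ± 0.31), Snhg11 (-1.55 ± 0.30) and Miat (-1.90 ± 0.36) were lower, 3 of 6 members where 3.83% of 3077 genes were called, and without hippocampus unit 3 the adjusted p of Meg3 was 0.0599. DESeq2 called Miat alone, with adjusted p of 0.173 for Meg3 and 0.0665 for Snhg11. With doublet calls removed Miat was not tested and the adjusted p in edgeR were 0.261 for Meg3 and 0.193 for Snhg11. In oligodendrocyte precursor-like nuclei, with 3 units a region, Meg3 (-1.31 ± 0.25) and Snhg11 (-1.53 ± 0.27) were lower, 2 of 6 where 2.48% of 767 genes were called. Without unit 1 of hippocampus or of cortex 0 members were called there by edgeR, with adjusted p of 0.0619 to 0.0971.

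The excitatory marker level was lower in hippocampus in these 3 classes as well, at 28.8% in hippocampus against 45.4% in cortex for astrocyte-like nuclei and 11.8% in hippocampus against 31.5% in cortex for vascular-like ones. For oligodendrocyte precursor-like nuclei it was 43.6% in hippocampus and 75.9% in cortex. Median depth was 801 UMIs in hippocampus and 1498 in cortex for astrocyte-like nuclei. The part of both in these differences was not tested. The region effect in astrocyte-like nuclei was not shown to differ from that in excitatory-like ones in the main fit. Of the 6 interaction terms 0 passed in edgeR and 0 in DESeq2, where 1.8% of 7931 genes were called in edgeR, and 3 had an unadjusted p under 0.05. Other alternatives did call members, Meg3 in 6 of 17 and Snhg11 in 5 of 17. The excitatory-like side of this contrast also holds the dentate granule-like nuclei described above.

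Of the other genes of the Dlk1-Dio3 domain Mirg had enough UMIs to be tested within classes and subtypes. Dentate granule-like minus CA1-like, where 27.6% of all genes were called, all 3 tested of the 7 listed genes were lower. These were Meg3 and Rian, members already described, and Mirg, the microRNA host at the far end of the cluster. Mirg stood at -1.79 ± 0.18 with an adjusted p of 6.57e-12 in edgeR. The median of the 3 was -1.80, against 0.01 over all genes tested. Oligodendrocyte-like minus excitatory-like, the same 3 were lower (Mirg -2.14 ± 0.44), where 35.1% of all genes were called. In inhibitory-like nuclei Mirg was higher by 0.52 ± 0.15 (adjusted p 0.0087 in edgeR), where Meg3 and Rian did not pass. In all nuclei, where 17.7% of all genes were called, 2 of 4 tested were lower in hippocampus, Meg3 and Rian themselves, while Mirg (-0.24 ± 0.14) and B830012L14Rik (-0.30 ± 0.34) did not pass.

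Most genes for proteins of the bodies that Neat1 and Malat1 RNA belong to were lower in vascular-like nuclei, where Malat1 had its lowest fold and Neat1 was higher. Vascular-like minus excitatory-like, where 77.7% of all genes were called, 15 of 16 nuclear speckle protein genes were lower and 1 higher, with a median of -0.80 against -0.05 over all genes. The lowest were Luc7l3 (-1.72 ± 0.14) and Srrm2 (-1.70 ± 0.13), and the higher one was the splicing factor gene Srsf3 (0.56 ± 0.15). Of 10 paraspeckle protein genes 7 were lower and 2 higher there, with a median of -0.71. Lists unrelated to these bodies fell there too, with medians of -0.925 over 7 other long noncoding RNAs and -0.80 over 4 snoRNA host genes. Of 10 paraspeckle protein genes tested in oligodendrocyte-like minus excitatory-like nuclei 2 were higher and 0 lower where 35.1% of all genes were called, Hnrnpk, an RNA-binding protein, by 0.64 ± 0.23 and Dazap1, another one, by 0.92 ± 0.35, and the median was -0.04 against -0.12 over all genes. Dentate granule-like minus CA1-like, where 27.6% of all genes were called, 2 of 11 were higher and 2 lower. Of 16 nuclear speckle protein genes in that contrast 4 were higher and 3 lower, among them the splicing factor genes Srsf1 (0.58 ± 0.14) and Srsf5 (-0.66 ± 0.09) and the speckle scaffold gene Srrm2 (-0.52 ± 0.06), with a median of 0.04 against 0.01. Of 9 snoRNA host genes 2 were higher and 0 lower, a share near that of all genes in the contrast, Snhg5 by 0.88 ± 0.18 and Gas5 by 0.37 ± 0.08, while Snhg11 was lower in the same contrast.

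Among other long noncoding RNAs Sox2ot, which overlaps the neural stem cell gene Sox2, was higher in oligodendrocyte-like than in excitatory-like nuclei by 6.31 ± 0.21, and Ftx, a gene of the X-inactivation region, was lower by 2.44 on the log2 scale. Of the 7 tested there 1 was higher and 3 were lower, where 35.1% of all genes were called. In all nuclei Sox2ot was higher in hippocampus by 1.04 ± 0.14, and of 10 tested 2 were higher and 3 lower, where 17.7% of all genes were called.

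Across the 24 clusters of at least 50 nuclei, the genes whose log2 level most resembled that of a member were, for Meg3, Mirg, A230006K03Rik and Eno2 (Pearson r 0.96 each), and for Snhg11, Mirg (0.97), A230006K03Rik (0.96) and 4930447C04Rik (0.94). For Rian they were A230006K03Rik (0.97), Mirg (0.96) and L1cam (0.96), and for Miat, Matk (0.97), Gm16105 (0.97) and Celf5 (0.96). Neat1 was most like the oligodendrocyte genes Trf (0.94), Cldn11 (0.90) and Cnp (0.90). Malat1 had no close partner, the nearest being Prrt1 (0.76), Arhgap39 (0.72) and Fam171b (0.71). Among the members, r was 0.99 for Meg3 with Snhg11, 0.98 for Meg3 with Rian, -0.70 for Meg3 with Neat1 and 0.03 for Meg3 with Malat1, and Neat1 with its neighbour Malat1 had -0.03. These values, over 4874 genes compared, are descriptions, since clusters share libraries and differ in depth.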

How the data were processed

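The table deposited by the authors gives, for each gene in each nucleus, its raw UMI count with no normalization, per the file header and its whole numbers. STAR, Seurat and the build mm10 are named in the submitters' processing notes, and the rules for collapsing UMIs, for intronic reads and for choosing nuclei were not given in the sources used here. Of 13313 columns, 1689 carry a library name that matches no sample label and were not used. Libraries were assigned by the start of the column names, and 0a and 0b of a region were summed to 1 unit. Depth was 1443244 to 2600788 UMIs per library. The most alike pair of libraries of a region had a chi-square of 1.356 per degree of freedom, so none was taken for a repeat deposit.

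Clustering used leidenalg 0.10.2 at resolution 2 in scanpy 1.11.5, without the 6 members (10000 per nucleus, log scale, 2000 variable genes, 40 principal components, 20 neighbours). A cluster was named from marker lists, with a mean marker score of at least 0.45 and a margin of 0.2 over the next class, or 0.6 and 0.15 for subtypes, thresholds chosen with the table in hand. The names may differ from those of the study. Doublet calls, 8.45% of nuclei, stayed in the main results. Counts of the nuclei of a class in a unit, where there were at least 20, were added up and tested with edgeR 4.0.16 in R 4.3.3 (TMM, filterByExpr, quasi-likelihood test, Benjamini-Hochberg over all genes, threshold 0.05). DESeq2 1.42.0 was an alternative. A standard error is the log2 fold change divided by the square root of F. Shares are UMIs of a gene over all UMIs, in % or as CPM (scaled to a total of 1000000). For some of the comparisons, the fits recovered known changes in counts simulated with the spread that the same model had estimated. Those counts held no differences between units and no free RNA, so that check does not cover either.

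The members and gene lists were chosen with earlier results of these data known. The genes named are the 6 members, members of the listed groups and, for each member, the 3 genes most alike over clusters. There were 25 settings, 3 of them chosen after seeing the data.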

Additional observations from a re-analysis of the deposited data

Results flagged for a closer look

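Of 126 sets of 4 units examined, 15 held 1 unit that passed Dixon's 95% criterion on its gap to the nearest other, and chance alone flags about 1 set in 20. Of these, 12 were the unit of number 0. The sets are not independent, since sums over all nuclei, classes and subtypes share nuclei and the 6 members together also form sets. The count of 15 is therefore not a measure of excess over chance. Over all nuclei, Meg3 had 27139.3 CPM in hippocampus unit 0, where the others had 33792.3 to 34370.5, and 33891.5 in cortex unit 0, where the others had 41910.3 to 43122.5. The 6 members together had 127094.5 in hippocampus unit 0 and 130497.2 in cortex unit 0, both the lowest of their region. Within excitatory-like nuclei of cortex unit 0, Meg3 had 37984.9 and Snhg11 20694.6, again the lowest.

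The subtypes of cortex unit 0 gave the same pair of directions. Meg3 was lowest there in layer 2-4-like nuclei, at 37227.5, and in layer 6-like nuclei, at 35547.7, while Rian was highest there, at 732.9 in layer 2-4-like and 722.9 in layer 6-like nuclei. Rian was also highest in the vascular-like nuclei of cortex unit 0, at 280.2 CPM against 97.4 to 125.8 in the others. In the dentate granule-like nuclei of hippocampus unit 0, Snhg11 had 2751.2, where the others had 3860.0 to 3893.4. Median depth per nucleus in the libraries of number 0 was 998.5 and 643.5 UMIs in hippocampus and 2732 and 2287 in cortex, and its part in these values was not tested.

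The other 3 were single values of other units. Rian had 200.5 CPM in the astrocyte-like nuclei of cortex unit 2, a sum of 21 nuclei. Snhg11 had 14142.3 in the excitatory-like nuclei of hippocampus unit 3, and Malat1 82326.9 in the layer 5-like nuclei of cortex unit 2.

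The region effect differed between neuron classes for Snhg11, by 0.74, and for Rian, by 0.63 (log2, inhibitory-like minus excitatory-like), each by an interaction term in edgeR with the adjusted p given in the report. Of 17 alternatives 10 lost the call of Snhg11 and 11 that of Rian, and DESeq2 called 0 of the 6 members, of which 4 had an unadjusted p under 0.05 in edgeR.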

How the results depend on the processing

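The 6 members were examined in 18 comparisons under up to 24 alternatives. Of 1069 alternative values of members that passed, 965 kept direction and call, 99 kept the direction and lost the call and 5 turned sign. Dentate granule-like minus CA1-like, the calls of Meg3, Snhg11 and Rian held in all 13 alternatives, and Neat1 against excitatory-like nuclei held in each class but the inhibitory-like one. The cause of the moves below was not tested.

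The sign turns of called members were in the region contrast of excitatory-like nuclei: without dentate granule-like nuclei Meg3 was 0.0589 and Snhg11 0.0272, and in layer 6-like nuclei alone Meg3 was 0.1033, Snhg11 0.0375 and Rian 0.2248. Both settings were chosen after seeing the data, and they left 1 and 0 of the 4 members called, the 0 in edgeR where 8 genes in all were called. In the same contrast Miat, not called, was -0.2623 in layer 6-like nuclei and -0.0094 without cortex unit 2. All other sign turns were of members that did not pass. Malat1 turned in fibroblast-like (0.0393, DESeq2) and oligodendrocyte-like nuclei (-0.1239 at resolution 1, -0.646 with the excitatory profile subtracted, -0.0354 with no filter). Between regions Malat1 turned in oligodendrocyte precursor-like (-0.2363, no filter) and vascular-like nuclei (0.0422 at resolution 1, 0.0513 with numbers 1 to 3, 0.1028 without cortex unit 0). In inhibitory-like nuclei Miat turned at resolution 1 (0.1837), and Neat1 at resolution 1 (-0.642) and without hippocampus unit 3 (-0.035).

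Between cortical layers 6 and 2-4 Meg3 turned when thinned (0.0098) and without unit 0 (0.0092), and Miat with the members kept in clustering (-0.0565), no filter (-0.0161) and when thinned (-0.0021). In the astrocyte interaction Rian turned at resolution 1 (-0.5998), with doublet calls removed (-0.2179), with the members in clustering (-0.1267) and without hippocampus unit 0 (-0.2241). In the inhibitory interaction Malat1 turned at resolution 1 (-0.1069), with no filter (-0.0051) and when thinned (-0.0257), and Miat at resolution 1 (0.1481). Neat1 turned there with the members in clustering (0.5419), when thinned (0.0879), without cortex unit 1 (0.0167) or 2 (0.2357) and without hippocampus unit 0 (0.3202).

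Counts of members called moved as follows. Against excitatory-like nuclei, precursor-like nuclei had 2 with nuclei of at least 600 UMIs, against 5. Fibroblast-like nuclei had 5 with the profile subtracted, 6 with no filter, 1 with at least 600 UMIs and 5 when thinned, against 3. Inhibitory-like nuclei had 2 with the profile subtracted, against 4, and oligodendrocyte-like nuclei 2 at resolution 1, against 5. Microglia-like nuclei had 1 with doublet calls removed, 6 with the profile subtracted and 5 with no filter, against 3. The astrocyte interaction had 5 at resolution 1, 3 with doublet calls removed, 1 without the members in the library size, 2 with the members in clustering and 3 with no filter, against 0. The inhibitory interaction had 0 in DESeq2, 4 at resolution 1, 1 at resolution 4, 0 with the members in clustering and 1 with at least 600 UMIs, against 2. Between regions, astrocyte-like nuclei had 6 at resolution 1, against 2, and vascular-like nuclei 1 in DESeq2 and 0 with doublet calls removed, against 3. Inhibitory-like nuclei had 3 with numbers 1 to 3 and 0 in DESeq2, at resolution 4, with doublet calls removed, with libraries as samples, with the members in clustering, with no filter and when thinned, against 1. Layer 6 against 2-4 had 0 in DESeq2, with the members in clustering and when thinned, against 1.

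Where leaving out 1 unit turned a sign, the highest or lowest value on the other side was 0.3534 for Rian in the astrocyte and -0.4304 for Neat1 in the inhibitory interaction, and, between regions, 0.1914 for Miat in excitatory-like, 0.686 for Neat1 in inhibitory-like and -0.1327 for Malat1 in vascular-like nuclei, with -0.0374 for Meg3 between layers 6 and 2-4. Leaving out 1 unit gave 1 to 4 members for fibroblast-like against excitatory-like nuclei, 0 to 2 for the astrocyte and 0 to 3 for the inhibitory interaction. Between regions it gave 3 to 5 in all nuclei, 2 to 4 in astrocyte-like, 0 to 3 in inhibitory-like and 0 to 3 in precursor-like nuclei, and between layers 6 and 2-4 it gave 0 to 1.

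Same-numbered units of the regions deviated together with correlations of 0.520, 0.176, 0.083 and 0.128 over 4882 genes for numbers 0 to 3. Since 1 of the 4 did not exceed 0.1 and the labels tie no number to a mouse, the numbers were not taken to pair the samples, and only number 0 correlated best with its own number. With the number as a replicate block, members called were 5 in all nuclei, 4 in excitatory-like, 2 in astrocyte-like, 1 in inhibitory-like, 4 in vascular-like and 0 in precursor-like nuclei (edgeR), and genes called in all nuclei were 3086 against 2278. Numbers 1 to 3 alone gave 4128 genes in all nuclei and 3473 in excitatory-like nuclei, against 1799. Thinning to 500 UMIs gave the fewest genes in most comparisons, such as 497 against 1802 between dentate granule-like and CA1-like nuclei. Depth limits Neat1 in neurons, with 17.02 to 34.8 CPM in excitatory-like nuclei, and the classes with few nuclei.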
